A study of Homo sapiens with 5 samples.

Results

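miR-183 and miR-96 are mature microRNAs cut from neighbouring hairpins that are transcribed together, in 1 cluster with miR-182. They were taken as the probes named hsa-miR-183 and hsa-miR-96 in the raw count table, 2 of the 734 miRNA probes, and both were measured in every sample. The samples were Caco2 cells, an established line from a human colorectal tumour that polarises into an epithelial layer in culture, infected and selected with an shRNA. In the NT group (n = 2, replicates 1 and 3) the shRNA had no target, and in the shPLEKHA7 group (n = 3, replicates 1, 2 and 3) it was directed at PLEKHA7, a protein of the adherens junction. Per the series description, the RNA came from 3 independent sets of infections. miRNAs in total RNA were counted with NanoString's nCounter Human v2 kit, which tallies colour-coded reporters on single target molecules and uses no PCR. The comparison asks whether the level of these miRNAs differed when PLEKHA7 was targeted. The panel table holds no PLEKHA7 probe, so the knockdown itself was not analysed here.

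A microRNA guides an Argonaute protein to messenger RNAs that pair with its seed, bases 2 to 8 counted from the 5′ end, and represses them. The miR-183, miR-96 and miR-182 cluster is best known from sensory organs, where it is abundant in hair cells and photoreceptors, and it is often raised in carcinomas, colorectal cancer among them. FOXO1, a transcription factor that restrains proliferation, is a known target of miR-96 and miR-182.

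The sequences show how alike the members are at the end that selects targets. They are RefSeq entries of the GRCh38.p14 tables, printed 5′ to 3′ with the seed in capitals, for the 2 members, for their cluster mate miR-182 and for miR-1271, which lies on another chromosome.
hsa-miR-183-5p: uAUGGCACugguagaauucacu
hsa-miR-96-5p: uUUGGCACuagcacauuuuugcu
hsa-miR-182-5p: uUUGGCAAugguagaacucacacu
hsa-miR-1271-5p: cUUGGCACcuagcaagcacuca

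The deposited target sequences of the miR-183, miR-96 and miR-1271 probes matched these mature sequences in full, so the probes read the 5p arms. Seeds of miR-183 and miR-96 were identical at 6 of 7 bases and differed by A2U, with the miR-183 base first and positions counted from the 5′ end. Aligned without gaps from that end, the members were identical at 13 of 22 positions. miR-183 was closer to miR-182 over its whole length, with 18 of 22 positions identical, although their seeds differed by A2U and C8A. miR-96 and miR-1271 had the same seed but were identical at only 9 of 22 positions. Among the 654 human probes, miR-1271 alone shared the miR-96 seed, and no other probe shared that of miR-183. The miR-182 seed was found in 0 of the 654, and no value of miR-182 was analysed here.

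The deposited tables name no genome build, and positions come from matching the probe targets to RefSeq on GRCh38.p14. There miR-183-5p lay at chr7:129774967-129774988 and miR-96-5p at chr7:129774739-129774761, both on the minus strand. The MIR96 and MIR183 hairpin genes were 135 bases apart, and MIR182 followed 4199 bases further along. No other gene of the RefSeq table overlapped the 4632 bases that hold the 3 hairpins, so the cluster was intergenic in that table, between the protein-coding genes NRF1 and UBE2H. The MIR96 hairpin is printed here with the arm that the probe reads in capitals.
MIR96 hairpin: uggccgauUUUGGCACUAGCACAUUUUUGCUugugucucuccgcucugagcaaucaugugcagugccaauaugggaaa

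Lanes differed in depth, with 32138 to 58298 miRNA counts each, and in background, with detection limits (mean plus 2 SD of the 8 negative-control probes) of 11 to 24.5 counts. Normalized counts below were scaled with TMM, a trimmed mean of ratios between lanes. As for the labelled line, all 5 probes of the epithelial miR-200 family were above the limit in every lane, with a summed normalized count of 1639 to 1684 in NT and 1431 to 1515 in shPLEKHA7 lanes. Of 3 intestinal markers 2 were above it in every lane, and the third, miR-215, only in the 3 shPLEKHA7 lanes. Before scaling, miR-215 stood at 11 and 17 for NT, against 31, 22 and 60 for shPLEKHA7. This marker was called higher in shPLEKHA7 (log2 fold change 1.22, SE 0.31, edgeR adjusted p = 0.048). Of 4 sensory and neuroendocrine markers 3 (miR-7, miR-375 and miR-124) were above the limit in no lane. miR-9 was above the limit in all 5, at 18 to 42 raw counts. miR-9 had a log2 fold change of -0.58 (SE 0.26, edgeR adjusted p = 0.209), about that of the members, and was not called. Of 4 blood and 4 stromal markers 1 each was above it in every lane. The stromal sum was 50.8 to 53.2 in NT and 68.4 to 81.7 in shPLEKHA7 lanes, the blood sum 73.5 to 87.4 and 77.1 to 89.4. Each sum includes 2 probes that were above the limit in no lane. miR-214, the stromal marker above the limit in every lane, was not called. It had 15 and 25 raw counts in NT and 27, 27 and 69 in shPLEKHA7 lanes. The part of these markers in the results was not tested. The source field of shPLEKHA7 replicates 2 and 3 names other PLEKHA numbers than the titles do, and the titles were followed. The numbers that end the sample descriptions put both NT samples (1 and 3) before the shPLEKHA7 samples (4 to 6), so that order and the group cannot be told apart.

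Both members were read well above background. miR-183 had raw counts of 103 and 152 in NT replicates 1 and 3, and of 89, 75 and 120 in shPLEKHA7 replicates 1, 2 and 3. These were 3.64 to 7.68 times the lane's detection limit, and the raw counts of the groups overlapped. It ranked between 39 and 55 among the 734 miRNA probes of a lane.

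miR-96 had raw counts of 457 and 837 in NT replicates 1 and 3, and of 498, 289 and 758 in shPLEKHA7 replicates 1, 2 and 3. These were 20.4 to 40.6 times the detection limit, and again the groups overlapped before scaling. It ranked between 13 and 20 in a lane and took 0.899% to 1.66% of the lane's miRNA count, against 0.186% to 0.302% for miR-183. Probes can differ in capture, so these shares do not compare the amounts of the 2 miRNAs. miR-1271, the probe that shares the miR-96 seed, had raw counts of 6 and 7 in NT and 11, 9 and 12 in shPLEKHA7 lanes, below the detection limit in all 5, so only a bound on its level was measured.

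After TMM scaling miR-183 stood at 131 and 143 normalized counts in NT replicates 1 and 3, and at 81.2, 103 and 90.7 in shPLEKHA7 replicates 1, 2 and 3. All 3 shPLEKHA7 samples lay below both NT samples. The means were 137 ± 8.7 (SD, n = 2) and 91.6 ± 11.0 (SD, n = 3), a log2 fold change of -0.59 (SE 0.16, 95% interval -0.95 to -0.23). By the edgeR quasi-likelihood test with Benjamini-Hochberg adjustment over the 204 tested probes the adjusted p was 0.0606, so miR-183 did not pass 0.05; at an adjusted p under 0.1 it would be among the 6.37% of probes called lower. Its unadjusted p of 0.00446 ranked 15 among the 204.

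miR-96 stood at 579 and 787 normalized counts in NT replicates 1 and 3, and at 454, 397 and 573 in shPLEKHA7 replicates 1, 2 and 3. The groups were just apart, since NT replicate 1 and shPLEKHA7 replicate 3 were close to each other. The means were 683 ± 147 (SD, n = 2) and 475 ± 89.8 (SD, n = 3), a log2 fold change of -0.52 (SE 0.19, 95% interval -0.94 to -0.10). The edgeR adjusted p was 0.12, and miR-96 did not pass either. The series description gives independent sets of infections, and the labels do not say which sample came from which set.

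**Figure D1:**
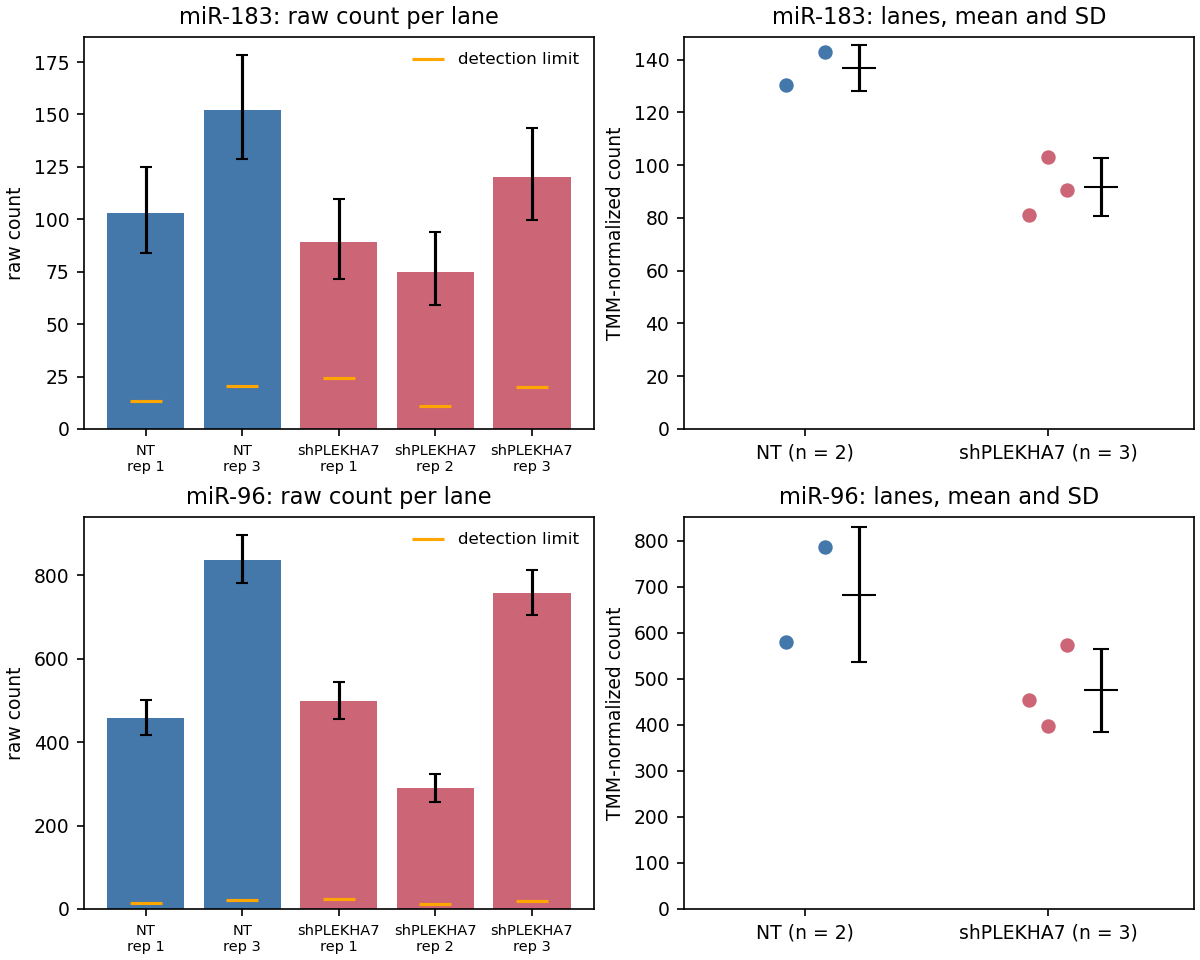
Raw counts per lane with 95% Poisson intervals (bars, left; orange ticks mark each lane's detection limit) and TMM-normalized counts per lane with the group mean and SD (points and bars, right) for miR-183 (top) and miR-96 (bottom), NT in blue and shPLEKHA7 in red. miR-183 is at 81.2 to 103 normalized counts in shPLEKHA7 lanes and at 131 and 143 in NT lanes, while the lowest NT value of miR-96 (579) is close to its highest shPLEKHA7 value (573).

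With 0 of the 2 members called lower, the background was 8 of 204 tested probes called lower, or 3.92% (6.37% called in either direction). Groups that did not overlap, lower in shPLEKHA7, were found for both members and for 45 of 204 probes, or 22.1%. Both members had a log2 fold change below 0, as did 43.6% of tested probes, and the median over all tested probes was 0.06. Ordered from the lowest fold change, miR-183 was number 15 and miR-96 number 21 of 204. The probes lower than the members included well-counted ones as well as ones with few counts. Among the 49 probes with a mean of at least 100 normalized counts, whose median log2 fold change was -0.17, miR-183 was number 9 and miR-96 number 11. Of these 49 probes 31 were below 0 and 7 were called lower. Most of the 49 had groups that did not overlap, lower in shPLEKHA7, so such separation was common among well-counted probes.

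Each member was set beside the 3 tested probes ranked next above it and the 3 ranked next below it by mean level. For miR-183 these (107 to 119 normalized counts) had log2 fold changes from -0.38 to 0.61 with a median of 0.00. For miR-96 they (494 to 675 normalized counts) ran from -0.33 to 0.36 with a median of -0.02. In both sets 0 of 6 lay below the member. let-7d, named after its value was seen, lay outside the miR-183 set by rank but closer in mean level (105 normalized counts) than the 3 probes above, and was lower than miR-183, at -0.71 (SE 0.21, not called).

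**Figure D2:**
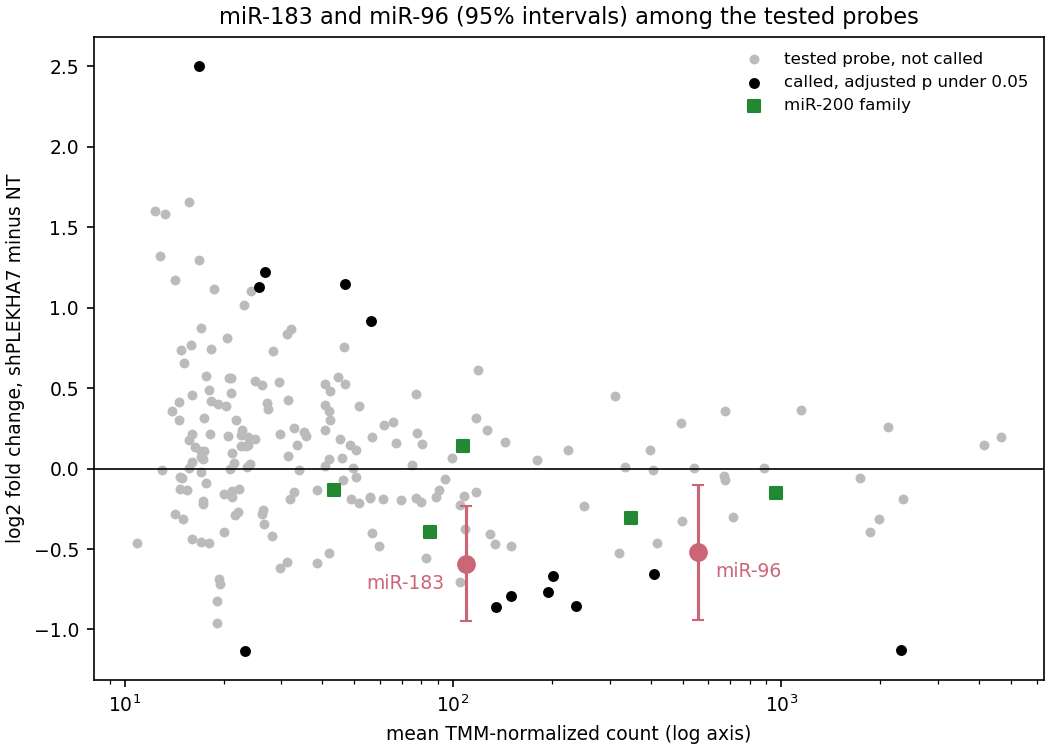
Log2 fold change (shPLEKHA7 minus NT) against mean TMM-normalized count (log axis) for the 204 tested probes, with called probes in black, the miR-200 family as green squares and the 2 members in red with 95% intervals. miR-183 (-0.59) and miR-96 (-0.52) lie in the lower part of the cloud for their abundance, and neither is among the called probes.

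The members differed in how far replicates scattered. The coefficient of variation of miR-183 was 6.38% in NT and 12.0% in shPLEKHA7 samples, about what counting alone gives at these counts (8.86% and 10.3%). For miR-96 it was 21.5% and 18.9%, against 3.93% and 4.41% from counting. On the log2 scale the SD within groups was 0.15 for miR-183 and 0.28 for miR-96, beside a median of 0.27 over the tested probes. It was 0.0595 to 0.305 in the 6 probes next to miR-96 by level, most of them below miR-96. In the 6 next to miR-183 it was 0.0736 to 0.399, most of them above miR-183.

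Leaving out a sample moved miR-96 more than miR-183. Without NT replicate 3, which had the highest miR-96 level, its log2 fold change was -0.23 (SE 0.22, edgeR adjusted p = 0.549). The other 4 such fits ran from -0.72 to -0.43. miR-183 ran from -0.68 to -0.48 over the 5 fits, and 1 of these called it, the fit without shPLEKHA7 replicate 2 (-0.68, edgeR adjusted p = 0.0224). That fit called 11 of its 173 tested probes lower. Where an NT sample was left out, the lone remaining one was assumed to vary like the shPLEKHA7 samples. With shPLEKHA7 replicate 1 as the only shPLEKHA7 sample, a choice made after the source fields had been read, miR-183 was at -0.74 (SE 0.25) and miR-96 at -0.58 (SE 0.23). Neither was called there by edgeR (adjusted p of 0.0584 and 0.115).

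The scaling of the lanes set the size of both differences. Scaled to the spike-in controls, synthetic targets added to each lane, miR-183 was at 153 and 163 in NT and at 72.7, 80.5 and 96.5 in shPLEKHA7 lanes. Its log2 fold change was then -0.93 (SE 0.27, edgeR adjusted p = 0.0101). miR-96 was at 681 and 900 in NT and at 407, 310 and 610 in shPLEKHA7 lanes under that scaling, with a log2 fold change of -0.84 (SE 0.27, edgeR adjusted p = 0.022). The groups were apart for both members, but the share of all probes with groups apart was not counted under this scaling. Under that scaling 14.2% of all tested probes were called lower, and their median log2 fold change was -0.27. Scaled to the 5 housekeeping mRNAs, miR-183 was at 120 and 157 in NT and at 79.4, 81.1 and 103 in shPLEKHA7 lanes. Its groups were apart there, and again the share of all probes with groups apart was not counted. miR-96 was at 534 and 867 in NT and at 444, 313 and 649 in shPLEKHA7 lanes, and there the groups overlapped. Neither passed with housekeeping scaling (edgeR adjusted p of 0.217 and 0.372, with 0.980% called lower). Measured from the median of all tested probes, the fold changes under TMM, spike-in and housekeeping scaling were -0.65, -0.65 and -0.66 for miR-183 and -0.58, -0.56 and -0.58 for miR-96. These scalings apply 1 factor per lane to all probes, so a value taken from the median is nearly fixed by construction, and its agreement is no result about the members.

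Over 13 other settings that kept all samples miR-183 was called in 5, with log2 fold changes from -0.93 to -0.48 and adjusted p from 0.0101 to 0.288. The other 4 settings beside spike-in scaling were DESeq2 size factors (4.90% of probes called lower), background subtraction (4.41%), human probes only (4.76%) and the replicate block. miR-96 was called in 1, spike-in scaling, with -0.84 to -0.41 and adjusted p from 0.022 to 0.396. With replicate numbers as a block edgeR called miR-183 (-0.67, edgeR adjusted p = 0.0206, with 5.88% of probes called lower) but not miR-96 (-0.41, edgeR adjusted p = 0.0616).

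**Figure D3:**
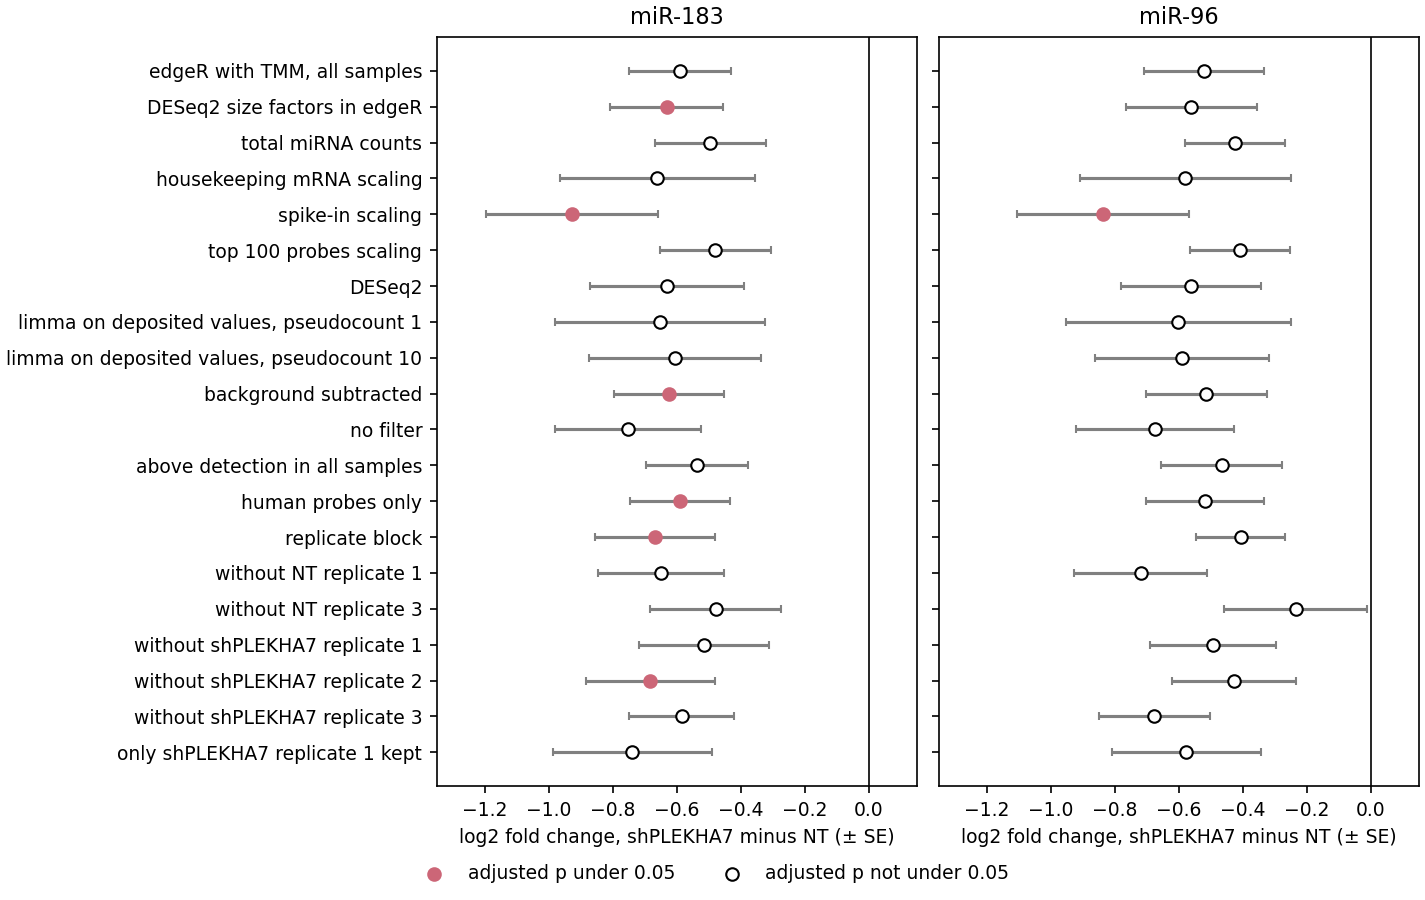
Log2 fold change (shPLEKHA7 minus NT) with its SE for miR-183 (left) and miR-96 (right) under each scaling, test, filter and left-out sample, filled red where the adjusted p was under 0.05. All values are below 0. For miR-96 the fit without NT replicate 3 (-0.23) comes closest to 0, and for both members spike-in scaling gives the lowest value (-0.93 and -0.84).

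The ratio of the 2 members within a lane needs no scaling and asks whether they changed unequally. The miR-183 share of the summed miR-183 and miR-96 counts was 18.4% (exact 95% binomial interval 15.3% to 21.9%, for counting error only) in NT replicate 1 and 15.4% (13.2% to 17.8%) in NT replicate 3. It was 15.2% (12.4% to 18.3%), 20.6% (16.6% to 25.1%) and 13.7% (11.5% to 16.1%) in shPLEKHA7 replicates 1, 2 and 3. The highest and the lowest share were both in the shPLEKHA7 group, with intervals that did not overlap. The log2 ratio of miR-183 to miR-96 averaged -2.31 ± 0.22 (SD, n = 2) in NT and -2.36 ± 0.37 (SD, n = 3) in shPLEKHA7 lanes. The difference of -0.06 was smaller than either SD (2-sided exact permutation p = 0.9, where this design cannot go below 0.1). Its sign turned without NT replicate 1 (0.10), shPLEKHA7 replicate 1 (0.003) or shPLEKHA7 replicate 3 (0.09). A difference between the members' responses was not detected with these samples, and a p above the threshold does not show that they responded alike.

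The miR-200 family, which keeps cells epithelial and is also transcribed in clusters, served as a reference within the lane. Set against the summed counts of its 5 probes, the log2 ratio of miR-183 was -3.65 and -3.56 in NT and -4.22, -3.80 and -3.99 in shPLEKHA7 lanes. All 3 shPLEKHA7 values lay below both NT values, and the group difference was -0.40 (2-sided exact permutation p = 0.2). For miR-96 the log2 ratio was -1.50 and -1.10 in NT and -1.74, -1.85 and -1.34 in shPLEKHA7 lanes. The groups overlapped, with a difference of -0.34 (2-sided exact permutation p = 0.3). Leaving out NT replicate 3 gave -0.14 for miR-96, and leaving out NT replicate 1 gave -0.54. At these group sizes no such test can pass 0.05, whatever the difference. The family's own log2 fold changes by edgeR were -0.39 to 0.14, and 0 of its 5 probes were called.

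Probes of co-transcribed neighbours did not always vary together in these lanes. Over the 5 lanes Pearson's r between miR-183 and miR-96, on the log2 scale of TMM-scaled counts, was 0.69. This is a description over samples that share their groups and their scaling. Of 17 other co-transcribed pairs with both probes tested, 7 had a higher r, and the pairs ran from -0.43 (miR-200c and miR-141) to 0.98 (miR-200a and miR-200b) with a median of 0.21. Some pairs held a probe near background. miR-425 (r -0.29 with miR-191) and miR-99a (r -0.26 with let-7c) were above the detection limit in 2 lanes. miR-27a (r 0.01 with miR-23a) and miR-302d (r 0.88 with miR-302a) were above it in 3. The miR-17 probe also reads miR-106a. The 17 pairs hold 30 different probes, since miR-200b, miR-25, miR-23a and miR-373 each occur in more than 1 pair. Whether a mature miRNA of these pairs also comes from other loci was not checked. A low r is thus not a measure of co-transcription. The difference in log2 fold change within the pair was 0.07 for miR-183 and miR-96, and it was smaller in 2 of the 17, whose median was 0.17. In 8 of the 17 pairs both probes were below 0, and in 1, miR-23a and miR-24, both were lower than miR-96.

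**Figure D4:**
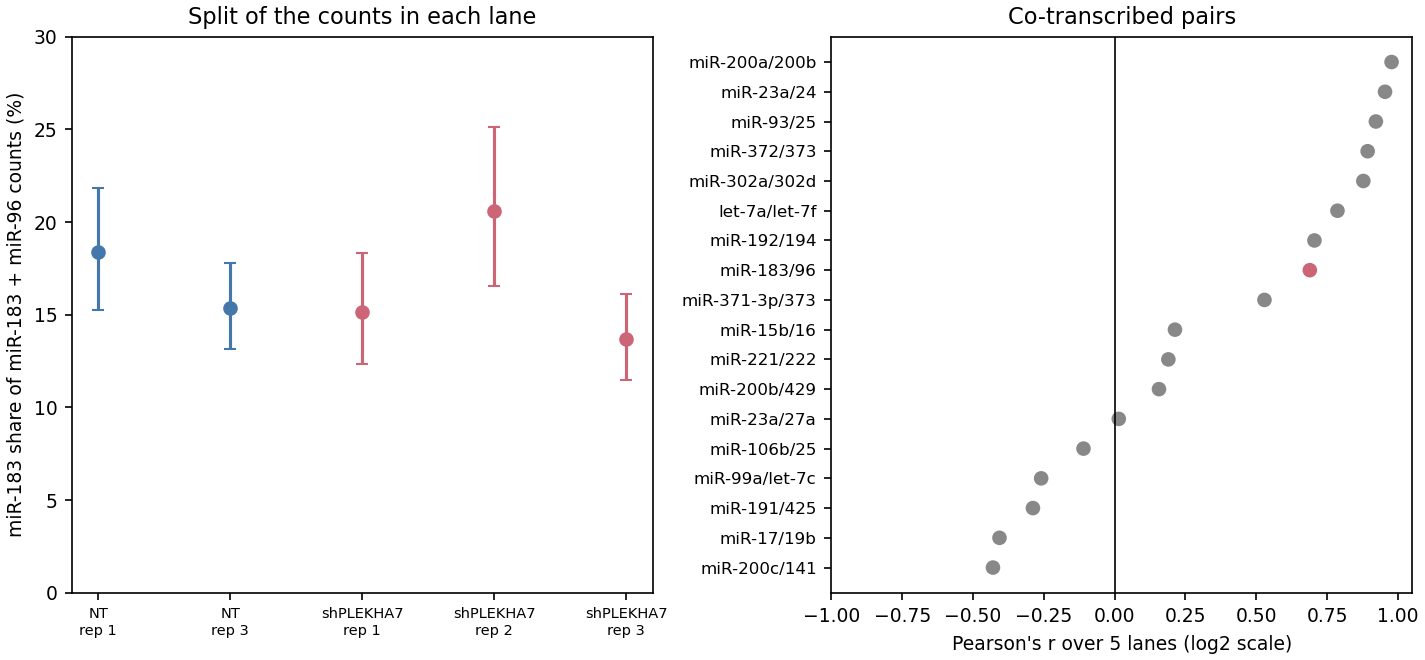
Left, miR-183 as a share of the summed miR-183 and miR-96 counts in each lane with exact 95% binomial intervals, NT in blue and shPLEKHA7 in red; right, Pearson's r over the 5 lanes for miR-183 and miR-96 (red) and 17 other co-transcribed pairs (grey). shPLEKHA7 replicates 2 (20.6%) and 3 (13.7%) hold the extremes of the share, and the members' r of 0.69 falls within the range of the other pairs.

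Probes with profiles like the members' were looked for over the whole panel. Among 188 other tested human probes the r of miR-183 was highest with miR-30a (0.99), miR-30b (0.98) and miR-148b (0.98), and miR-96 was number 26. miR-30a, from a family linked to epithelial differentiation, was one of the called falls (log2 fold change -0.86, SE 0.16, edgeR adjusted p = 0.0211). miR-30b was at -0.40 (SE 0.13) and miR-148b at -0.47 (SE 0.14), and neither was called. The profile of miR-96 was most like those of miR-148a (0.99), miR-372 (0.99) and miR-22 (0.96), with miR-183 at number 29. These 3 were at -0.53 (SE 0.18), -0.31 (SE 0.14) and -0.23 (SE 0.15), and none was called. miR-148a had 335 and 450 normalized counts in NT and 272, 224 and 319 in shPLEKHA7 lanes. These probes were picked as the highest of 188 correlations over 5 lanes, so their likeness to the member is set by the choice and stands as a description.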

How the data were processed

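The authors deposited a table of raw counts per probe and lane, whole numbers, from the nCounter Human v2 miRNA panel, with 734 miRNA, 8 negative, 6 positive and 5 mRNA probes; the exporting software is not given in the sources used here. The authors' second table holds a normalized signal: human values were the raw count times 1 factor per lane that equalised the housekeeping mRNAs, per the values, and viral probes were unscaled. Samples were grouped by title. Raw counts were tested with edgeR 4.0.16 (R 4.3.3), quasi-likelihood, TMM scaling, group as the only term, on the 204 probes above the mean plus 2 SD of negative controls in at least 2 samples. SEs were derived from the test (the size of the log2 fold change divided by the root of its F statistic). Alternatives used limma 3.58.1 on log2 of the signal plus 1 or 10, DESeq2 1.42.0, other scalings and filters, background subtraction with a floor of 1, a replicate block and left-out samples. Single ratios had exact permutation tests over 10 splits. The test was checked on simulated data that gave all probes 1 common scatter between replicates (dispersion 0.0153). That check does not cover the members' own scatter and does not bear on their calls. Named probes were the members, their cluster mate and seed relative, the 3 most correlated probes of each, cell type markers and co-transcribed pairs, and let-7d, chosen after its value was seen. Members and lists were chosen with earlier results of these data known.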

Additional observations from a re-analysis of the deposited data

How the results depend on the processing

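miR-183 and miR-96 stayed below 0 in every fit run, and calls changed as follows. miR-183, not called by edgeR with TMM, was called with DESeq2 size factors (-0.63), spike-in scaling (-0.93), background subtraction (-0.62), human probes only (-0.59), an adjusted p under 0.1 (-0.59) and the replicate block (-0.67), and without a sample it ran from -0.68 to -0.48. miR-96 was called with spike-in scaling (-0.84) alone, and ran from -0.72 to -0.23 without a sample. The replicate block compared only replicates 1 and 3 of each group. The number of probes called higher, 5, was 8 at an adjusted p under 0.1, 12 with total counts, 12 with the top 100 probes, 0 with DESeq2 (17 at an unadjusted p under 0.05), 1 without a filter, 2 among probes detected in all samples, 10 with the replicate block, 1 with only shPLEKHA7 replicate 1 kept, and 0 to 9 without a sample. The number called lower, 8, was 13 at an adjusted p under 0.1, 2 with housekeeping scaling, 29 with spike-in scaling, 2 and 4 with limma at pseudocounts of 1 and 10, and 0 to 11 without a sample. The counts of 0 came from edgeR without NT replicate 1 (0 higher, against 18 before adjustment at p under 0.05) and from the fit lacking NT replicate 3 (22 higher and 12 lower before adjustment). The ratio of miR-183 to miR-96 ran from -0.27 to 0.10 without a sample, and reversed without NT replicate 1 (0.10), shPLEKHA7 replicate 1 (0.003) or shPLEKHA7 replicate 3 (0.09). The causes were not tested. Ratios to the miR-200 family kept their sign in all settings. The numbers shared by replicates were not taken as pairs, since the labels do not say that they mark 1 infection set and only 2 numbers are shared; deviations of same-numbered samples correlated at 0.02 and 0.14. With 2 against 3 samples no exact permutation test can go below 0.1. No human probe had the miR-182 seed and miR-182 was not analysed here, while miR-1271 was below the detection limit in all lanes. miR-182 gave no test, and miR-1271 was tested only in the fit without a filter (0.37, SE 0.49, edgeR adjusted p = 0.897).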
